A study of Mus musculus with 12 samples.

Results

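The mitotic spindle, kinetochore and G2/M genes described here are 44 genes whose products drive cells into mitosis, build the spindle, attach chromosomes to it, and divide the cell. They were taken by symbol from a list drawn up for this work, with earlier results of these data known. All 44 were found among the 21885 genes of the deposited table. They were followed in 12 mouse RNA-seq libraries of 3 groups with 4 libraries each. Pax5 KO stands for sorted lymphoid cells of Pax5-/- fetal liver, labelled as common lymphoid progenitor and pre-pro-B cells. Pax5 WT stands for sorted pro-B and pre-BI cells of Pax5+/+ fetal liver. P80R B-ALL stands for GFP+ leukaemia cells with the PAX5 P80R mutant, a substitution in the DNA-binding domain of this B-lineage transcription factor, sorted from the primary recipients 1300, 1301, 1302 and 1308. The labels give neither the age of the fetal livers and recipients nor the endogenous Pax5 genotype of the leukaemia cells or the vector that carried the mutant. The genotype of the 2 fetal liver groups cannot be told apart from the stage at which their cells were sorted, and the leukaemia cells also differ from both in being grown in a recipient. The labels do not say whether the fetal liver libraries of a group came from separate animals, so the p-values measure the spread between these libraries, which may be technical there.

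As background, transcripts of these genes accumulate late in the cell cycle, when the MuvB complex joins first B-Myb and then FoxM1 at their promoters. MuvB binds the cell cycle genes homology region, CHR, usually TTTGAA or TTCGAA, close to the transcription start, and NF-Y binds CCAAT boxes a little further upstream. In resting cells the same CHR is bound by the repressive DREAM complex, so that the genes are commonly read together as a measure of how many cells of a population are cycling. Pro-B and pre-BI cells of fetal liver are a strongly dividing population. In bulk RNA, fewer cells in mitosis and fewer transcripts per mitotic cell cannot be told apart.

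The RefSeq promoter table (GRCm38.p6, 250 bases before to 50 after each start) held 38 of the 44 genes, with 41 starts; Aurkb, Ccna2, Cdc25c, Incenp, Kif20a and Tpx2 were not matched. TTTGAA or TTCGAA, searched on both strands, was found in 29 of the 38 genes (76.3%) and in 21.7% of all 27025 genes of the promoter table. Of the 12177 genes tested in any comparison, 9632 had a promoter there, and 16.6% of these held the letters. CCAAT, on either strand, was found in 27 of 38 (71.1%), against 43.1% of the tested genes and 41.1% of all genes. Both were found in 24 of 38 (63.2%), against 6.94% and 8.61%. The CHR letters lay within 50 bases of the start in 27 genes, and in 18 genes a match lay after the start. In the last 150 bases before the start alone, the CHR letters were found in 31.6% of the mitotic genes and in 7.62% of the tested genes. A CCAAT match lay in the 120 bases before the start in 26 genes. In 1 gene, Cdca8, a CCAAT and a CHR match overlapped. These are matches of letters, not shown sites.

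The 100 bases before the start are printed for 7 genes whose CHR and CCAAT letters both lie in that stretch. They cover several roles, with Cdc20, Ube2c and Espl1 in the same one. The stretch is also printed for Mad2l1 and Pttg1, the 2 genes not called lower in P80R B-ALL than in Pax5 WT. All sequences are written 5′ to 3′ on the strand of the gene, from RefSeq on GRCm38.p6. Capitals mark the letters CCAAT, read as ATTGG where they lie on the opposite strand, and TTTGAA, read there as TTCAAA.
Cdk1 (chr10:69352913-69353012, minus strand): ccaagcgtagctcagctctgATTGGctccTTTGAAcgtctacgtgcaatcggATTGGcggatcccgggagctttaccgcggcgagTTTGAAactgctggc
Cdc20 (chr4:118437344-118437443, minus strand): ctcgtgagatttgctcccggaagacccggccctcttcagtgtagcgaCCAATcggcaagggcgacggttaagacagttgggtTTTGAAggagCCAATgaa
Ube2c (chr2:164769829-164769928, plus strand): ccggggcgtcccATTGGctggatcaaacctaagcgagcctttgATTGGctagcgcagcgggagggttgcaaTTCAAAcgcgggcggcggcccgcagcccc
Espl1 (chr15:102296193-102296292, plus strand): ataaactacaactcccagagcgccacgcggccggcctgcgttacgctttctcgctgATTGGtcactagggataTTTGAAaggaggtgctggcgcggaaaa
Kif11 (chr19:37376282-37376381, plus strand): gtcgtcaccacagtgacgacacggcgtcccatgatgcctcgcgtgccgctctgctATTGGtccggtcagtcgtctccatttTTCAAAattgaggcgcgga
Prc1 (chr7:80294376-80294475, plus strand): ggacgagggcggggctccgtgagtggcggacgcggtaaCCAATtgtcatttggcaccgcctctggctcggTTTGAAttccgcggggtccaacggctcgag
Top2a (chr11:99024190-99024289, minus strand): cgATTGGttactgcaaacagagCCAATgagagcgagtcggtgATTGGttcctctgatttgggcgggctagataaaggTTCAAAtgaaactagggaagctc
Mad2l1 (chr6:66535121-66535220, plus strand): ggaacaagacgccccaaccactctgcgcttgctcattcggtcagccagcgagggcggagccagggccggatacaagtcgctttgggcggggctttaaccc
Pttg1 (chr11:43425982-43426081, minus strand): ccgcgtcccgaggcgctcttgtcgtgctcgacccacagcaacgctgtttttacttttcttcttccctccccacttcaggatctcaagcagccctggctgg
In Cdk1, TTTGAA began 71 and 15 bases before the start. In Cdc20 it began 18 bases before the start, between CCAAT letters at 53 and 8 bases. The CHR letters of Kif11, Top2a, Espl1 and Ube2c began 19, 23, 27 and 29 bases before the start. Those of the Prc1 start shown began 30 bases before it. Mad2l1 and Pttg1 held neither set of letters in the whole 300-base window, and the same was true of Birc5, Kif18a, Nuf2 and Nusap1, which were called lower in P80R B-ALL than in Pax5 WT. Ccnb1, Cenpe and Nek2 held CCAAT without the CHR letters.

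**Figure D1:**
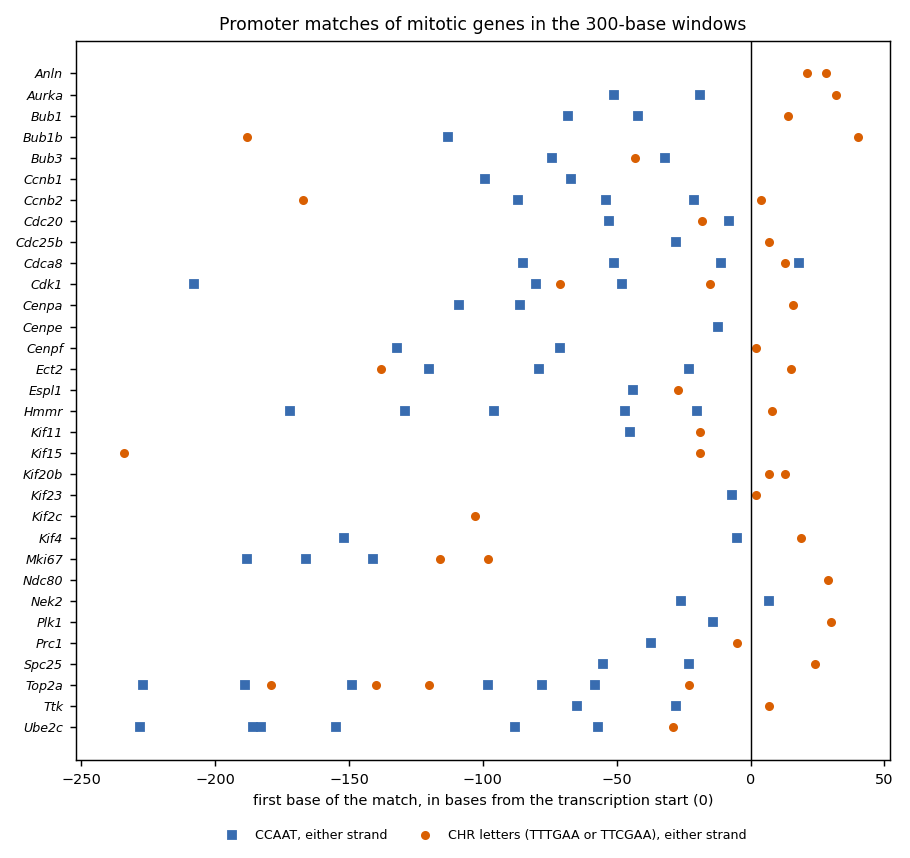
First base of each match to CCAAT (blue squares) and to the CHR letters (orange circles), on either strand, in bases from the transcription start (vertical line at 0), for the 32 mitotic genes with a match. The CHR letters gather around the start and CCAAT mostly in the 120 bases before it.

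Values below are the deposited read counts scaled by 1 constant per library. Libraries held 24914250 to 29386256 reads in P80R B-ALL, 33191950 to 39465256 in Pax5 WT and 36871775 to 43513852 in Pax5 KO. Pax5 itself ranged from 6194 to 7315 in Pax5 WT, from 229.9 to 267 in Pax5 KO and from 255 to 1316 across recipients; the labels do not say which part of the gene was deleted, or whether transcripts of the mutant were counted under it. The recipients 1300 and 1308 stood apart by markers of other blood cells, given after the results, and each main count is given without them too. Values are listed in the order of replicates 1 to 4 for the fetal liver groups and of recipients 1300, 1301, 1302 and 1308 for P80R B-ALL. Differences are on the log2(value + 1) scale, from limma on the 8 libraries of each comparison, with Benjamini-Hochberg adjustment over all genes tested, and a gene was called at an adjusted p of at most 0.05.

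The mitotic genes were lower in P80R B-ALL than in Pax5 WT nearly throughout. Of the 44, 42 were called lower, where 40.6% of the 11615 genes tested were called at all, 19.8% lower and 20.8% higher. In 41 genes every P80R B-ALL library lay below every Pax5 WT library, which was so for 20.2% of genes tested; the reverse, true of 21.3% of genes tested, was seen in none of the 44. The median difference was -1.52, against -0.03 over all genes tested, and 32 genes were lower by more than 1. No mitotic gene was called higher by limma; at an unadjusted p under 0.05 the count was 1, and edgeR and DESeq2 on the recovered reads each called 1, Pttg1 in each case. The genes not called were Mad2l1 and Pttg1.

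In Pax5 KO, too, most stood below Pax5 WT. Of the 44, 40 were called lower, where 66.4% of the 11576 genes tested were called at all, 30.3% lower and 36.1% higher. In 39 genes every Pax5 KO library lay below every Pax5 WT library, against 27.9% of genes tested; the reverse held for 32.9% of genes tested and for none of the 44. The median difference was -0.82, against 0.05 over all genes tested. None was called higher by limma, also at an unadjusted p under 0.05 and by edgeR and DESeq2. Those not called were Pttg1, Espl1, Anln and Kif23.

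P80R B-ALL and Pax5 KO differed in a more mixed way. In P80R B-ALL, 27 of the 44 genes were lower, 2 were higher (Mad2l1 and Spc25) and 15 were not called, where 39.0% of the 11914 genes tested were called at all, 21.2% lower and 17.9% higher. The groups did not overlap for 29 genes that were lower and 4 that were higher (Mad2l1, Spc25, Nuf2 and Bub3), against 23.3% and 19.7% of genes tested. The median difference was -0.70, against -0.12 over all genes tested. This comparison depended most on the processing: removing the trend with coding length described further on left 15 genes lower and 1, Nuf2, higher, with a median of -0.34. The comparisons share their groups, so their results are not independent of each other. In data simulated with each group's own spread and few changed genes, the share of limma's calls that were false exceeded the threshold in both comparisons with P80R B-ALL, and most changes of up to 1 were missed there; neither was so for Pax5 KO against Pax5 WT.

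**Figure D2:**
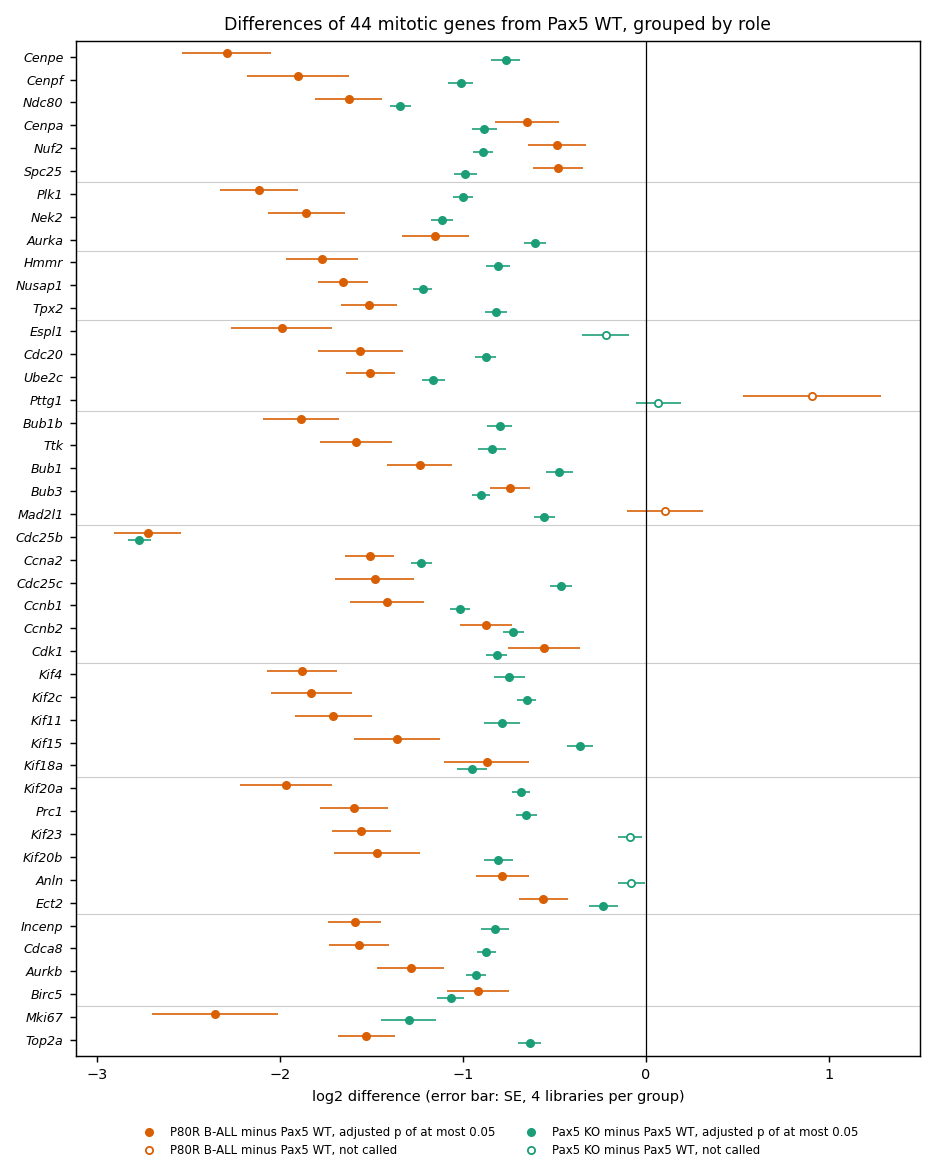
log2 difference from Pax5 WT (x axis; error bar, SE from limma with 4 libraries per group) of each mitotic gene in P80R B-ALL (orange) and in Pax5 KO (green), grouped by role and ordered within each role by the P80R B-ALL difference. Filled points have an adjusted p of at most 0.05; all but Mad2l1 and Pttg1 are filled in orange, and all but Pttg1, Espl1, Anln and Kif23 in green.

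The cyclins, Cdk1 and the Cdc25 phosphatases start mitosis: B-type cyclins (Ccnb1, Ccnb2) and cyclin A (Ccna2) bind and activate the kinase Cdk1, and Cdc25b and Cdc25c remove its inhibitory phosphates. All 6 were lower in P80R B-ALL than in Pax5 WT (median -1.45) and all 6 were lower in Pax5 KO than in Pax5 WT (median -0.92). Between P80R B-ALL and Pax5 KO, Cdc25c alone was called, at -1.02 ± 0.22 (SE; adjusted p = 0.00695). Ccnb1 (ENSMUSG00000041431) stood at 9910.3, 10453, 11340.0 and 10473 in Pax5 KO, 20912, 21284, 20943 and 22015 in Pax5 WT and 5416, 11276, 8779 and 7564 in P80R B-ALL. All P80R B-ALL libraries were below all Pax5 WT libraries, with a difference of -1.42 ± 0.20 (SE; adjusted p = 0.000657), while recipient 1301 reached the Pax5 KO range. Cdk1 (ENSMUSG00000019942) had 7575, 7789.6, 7495 and 7769.6 in Pax5 KO, 13003, 13258, 12797 and 15013 in Pax5 WT and 8503, 13951, 7672 and 7721 in P80R B-ALL. Recipient 1301 lay within the Pax5 WT range and the other 3 near the Pax5 KO libraries, and the difference from Pax5 WT was -0.56 ± 0.20 (SE; adjusted p = 0.0459). That call was lost when any 1 library other than recipient 1301 was left out, with adjusted p up to 0.112, and without recipients 1300 and 1308. Ccnb2 was at 7505, 8466, 8120.3 and 8231 in Pax5 KO, 13147, 13404, 12744 and 14123 in Pax5 WT and 5934, 8985, 7065 and 7456 in P80R B-ALL, again below Pax5 WT in every recipient. The widest gap of all 44 genes was that of Cdc25b (ENSMUSG00000027330), with 949, 986, 1000.4 and 1020.0 in Pax5 KO, 6584, 6964, 7244 and 6257 in Pax5 WT and 755, 1007, 1387 and 1032 in P80R B-ALL. Its levels in P80R B-ALL averaged 15.5% of the Pax5 WT mean. The differences from Pax5 WT were -2.72 ± 0.18 (SE; adjusted p = 1.56e-05) in P80R B-ALL and -2.77 ± 0.06 (SE; adjusted p = 2.74e-12) in Pax5 KO, and P80R B-ALL and Pax5 KO overlapped.

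Plk1, Aurka and Nek2 encode kinases of mitotic entry and of the centrosomes. All 3 were lower in P80R B-ALL than in either fetal liver group, and lower in Pax5 KO than in Pax5 WT. Plk1 (ENSMUSG00000030867) had 4691, 5197, 4702 and 4793 in Pax5 KO, 9869, 9578, 9816 and 9473 in Pax5 WT and 1438, 2581, 3085 and 2166 in P80R B-ALL. The 3 groups did not overlap, and P80R B-ALL differed by -2.12 ± 0.21 (SE; adjusted p = 0.000114) from Pax5 WT and by -1.12 ± 0.22 (SE; adjusted p = 0.00475) from Pax5 KO. Aurka, the Aurora kinase of the spindle poles, ran at 4802, 4928, 4843 and 4957 in Pax5 KO, 6953, 7332, 7369 and 8127 in Pax5 WT and 2493, 4641, 3441 and 3143 in P80R B-ALL. The groups again did not overlap, although recipient 1301 came close to Pax5 KO, and the difference from Pax5 KO was -0.55 ± 0.18 (SE; adjusted p = 0.0388), a call lost with the coding-length trend removed (adjusted p = 0.0583).

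The anaphase-promoting complex is the ubiquitin ligase that ends mitosis. Cdc20 activates it, Ube2c is its ubiquitin-conjugating enzyme, securin (Pttg1) is one of its substrates, and separase (Espl1), freed from securin, cuts cohesin. In this group Cdc20, Ube2c and Espl1 were lower in P80R B-ALL than in both fetal liver groups and Pttg1 was not called. Cdc20 stood at 6887, 7357, 7248 and 7195 in Pax5 KO, 12722, 12664, 12784 and 14610.3 in Pax5 WT and 2795, 6129.6, 5668 and 4079.7 in P80R B-ALL, with no overlap and a difference of -1.56 ± 0.23 (SE; adjusted p = 0.00079) from Pax5 WT; with the coding-length trend removed its call against Pax5 KO was lost (adjusted p = 0.102). For Ube2c the libraries read 8355, 8412, 8376 and 8678 in Pax5 KO, 17810.1, 18375, 18147 and 21560.2 in Pax5 WT and 6074, 6790.5, 6101 and 7804 in P80R B-ALL. Every recipient was below Pax5 WT, at -1.51 ± 0.13 (SE; adjusted p = 5.72e-05), and just below Pax5 KO, at -0.34 ± 0.12 (SE; adjusted p = 0.0454), or -0.75 with the coding-length trend removed. Espl1 showed 2622, 2847, 3090.2 and 2755 in Pax5 KO, 3660.1, 3731, 3647 and 2352 in Pax5 WT and 560.1, 899.6, 1344 and 691 in P80R B-ALL. This was the largest difference from Pax5 KO of the 44 genes, -1.77 ± 0.25 (SE; adjusted p = 0.00118), and -1.08 with the coding-length trend removed. Pax5 KO and Pax5 WT overlapped through the fourth Pax5 WT library, without which Espl1 was called lower in Pax5 KO, at an adjusted p of 6.41e-05. Securin ran the other way, with 691, 678, 690.1 and 803 in Pax5 KO, 572, 626, 696 and 868 in Pax5 WT and 1618, 1032, 634 and 2544 in P80R B-ALL (ENSMUSG00000020415). Recipients 1300, 1301 and 1308 lay above all fetal liver libraries and recipient 1302 among them. The difference from Pax5 WT was 0.91 ± 0.38 (SE; adjusted p = 0.081), not called; without recipient 1302 it was 1.25 with an adjusted p of 0.0118.

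**Figure D3:**
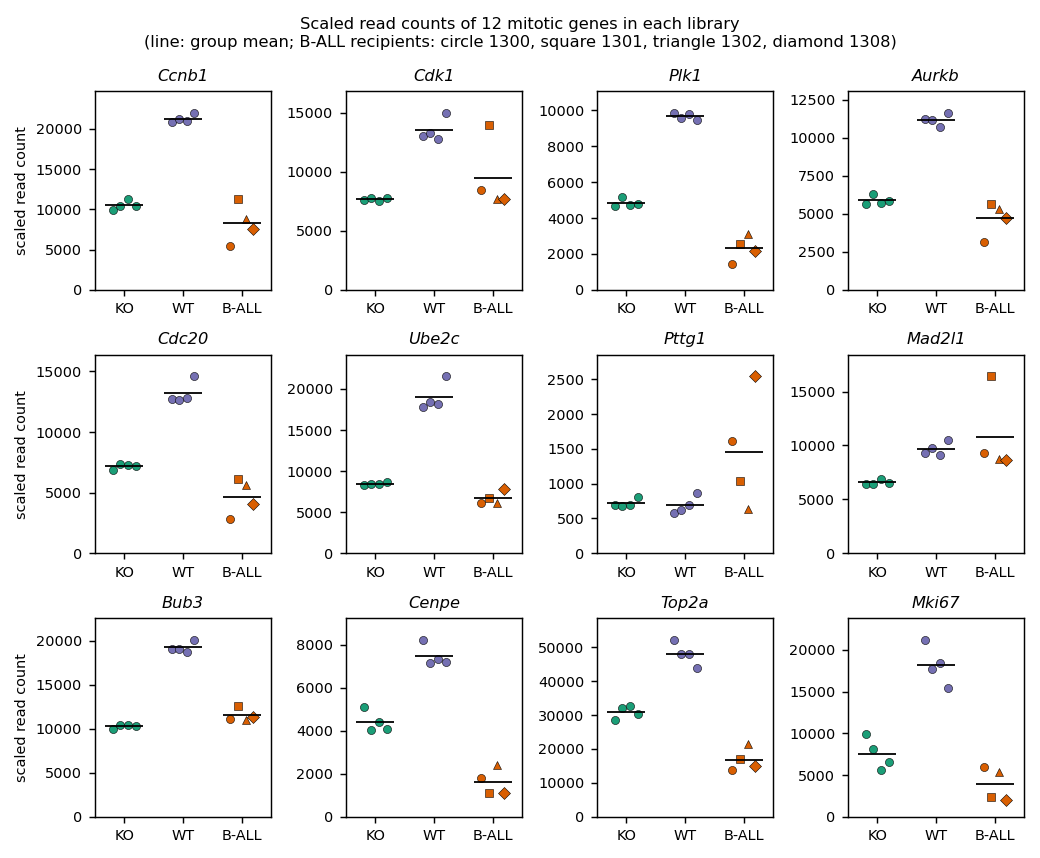
Scaled read counts (y axis, linear from 0) of 12 mitotic genes in each library of Pax5 KO, Pax5 WT and P80R B-ALL; each point is a library and the line is the group mean. In most panels Pax5 WT is above both other groups; Pttg1 and Mad2l1 are the exceptions, and recipient 1301 (square) is far above the other recipients for Cdk1 and Mad2l1.

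The spindle assembly checkpoint holds back the anaphase-promoting complex until every kinetochore is attached; Ttk and Bub1 are its kinases, and Mad2l1, Bub1b and Bub3 belong to the inhibitory complex. Bub1, Bub1b, Bub3 and Ttk were lower in P80R B-ALL than in Pax5 WT, and all 5 genes were lower in Pax5 KO than in Pax5 WT. Against Pax5 KO, Bub1, Bub1b and Ttk were lower in P80R B-ALL and Mad2l1 was higher. With the coding-length trend removed, Bub1 (-0.22, adjusted p = 0.449) and Ttk (-0.32, adjusted p = 0.185) were no longer called, and Bub1b went from -1.09 to -0.55. Bub1b had 8927, 9478, 10139.9 and 9139.9 in Pax5 KO, 17535, 17341, 16169 and 14631 in Pax5 WT and 3366, 4911, 6502 and 3563 in P80R B-ALL, with no overlap and a difference of -1.89 ± 0.21 (SE; adjusted p = 0.000177) from Pax5 WT. Bub3, which also works outside mitosis, had 9989, 10436, 10424 and 10265 in Pax5 KO, 19026, 19072, 18715 and 20119 in Pax5 WT and 11152, 12585, 10940.4 and 11364 in P80R B-ALL. Its recipients lay above every Pax5 KO library and below every Pax5 WT library, by -0.74 ± 0.11 (SE; adjusted p = 0.000773) from the latter, and the difference from Pax5 KO, 0.16 ± 0.10 (SE; adjusted p = 0.237), was not called. Mad2l1 (ENSMUSG00000029910) had 6398, 6439, 6925 and 6508 in Pax5 KO, 9271, 9737, 9147 and 10487 in Pax5 WT and 9322, 16427, 8751 and 8617 in P80R B-ALL. All recipients were above Pax5 KO and they straddled Pax5 WT. The difference was 0.66 ± 0.21 (SE; adjusted p = 0.032) from Pax5 KO and 0.10 ± 0.21 (SE; adjusted p = 0.719) from Pax5 WT. The call against Pax5 KO was lost when any Pax5 KO library was left out, with adjusted p up to 0.08, and with the coding-length trend removed it was 0.229.

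Kinetochores are built on the centromeric histone Cenpa; Ndc80, Nuf2 and Spc25 form the complex that grips microtubules, Cenpe is a kinetochore motor, and Cenpf is a large protein of the outer kinetochore. All 6 were lower in P80R B-ALL than in Pax5 WT and all 6 were lower in Pax5 KO than in Pax5 WT. Between P80R B-ALL and Pax5 KO the group split, with Cenpe and Cenpf lower, Spc25 higher and the other 3 not called (median -0.02). Cenpf lost this call with the coding-length trend removed (-0.19, adjusted p = 0.507), and Nuf2 became called higher (0.51). Cenpe had 5110.1, 4042, 4412 and 4083 in Pax5 KO, 8243, 7133, 7358 and 7208 in Pax5 WT and 1816, 1121, 2388 and 1113 in P80R B-ALL. Even the highest recipient, 1302, lay far below the lowest Pax5 KO library, and the differences were -2.29 ± 0.24 (SE; adjusted p = 0.000141) from Pax5 WT and -1.53 ± 0.25 (SE; adjusted p = 0.00231) from Pax5 KO, the last of which was -0.83 with the coding-length trend removed. Within the Ndc80 complex the subunits differed in size of change. Ndc80 itself had 3475, 3479, 3425 and 3109 in Pax5 KO, 8555, 8537, 8173 and 8917 in Pax5 WT and 2025, 3817, 2839.6 and 2678 in P80R B-ALL, a difference of -1.62 ± 0.18 (SE; adjusted p = 0.000194) from Pax5 WT. Spc25 had 4167, 3826, 4007 and 3995 in Pax5 KO, 7556, 7838, 7634 and 8732 in Pax5 WT and 6007, 6439, 4627 and 5834 in P80R B-ALL. Its recipients lay between the fetal liver groups with no overlap, at -0.48 ± 0.14 (SE; adjusted p = 0.0206) from Pax5 WT and 0.51 ± 0.13 (SE; adjusted p = 0.0147) from Pax5 KO. The first of these calls was lost without Pax5 WT library 2, 3 or 4 and the other without Pax5 KO library 2 or with the coding-length trend removed (adjusted p = 0.133). Nuf2 differed from Pax5 WT by -0.49 ± 0.16 (SE; adjusted p = 0.0333), a call lost in 6 of the 8 fits without 1 library. Cenpa had 8411, 7707, 7403 and 8250.0 in Pax5 KO, 14037, 14642, 13731 and 16292 in Pax5 WT and 7358, 12761, 8733 and 9239 in P80R B-ALL, with every recipient below Pax5 WT and an overlap with Pax5 KO. Without recipients 1300 and 1308 the calls against Pax5 WT were lost for Cenpa (-0.47, adjusted p = 0.0568) and for Nuf2 (-0.28, adjusted p = 0.124).

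The chromosomal passenger complex, made of Aurkb, Incenp, survivin (Birc5) and borealin (Cdca8), corrects faulty attachments and later acts in cytokinesis. All 4 were lower in P80R B-ALL than in Pax5 WT (median -1.43) and lower in Pax5 KO than in Pax5 WT (median -0.90). Incenp and Cdca8 were lower in P80R B-ALL than in Pax5 KO, and Aurkb and Birc5 were not called. Aurkb read 5654, 6304, 5723 and 5830.1 in Pax5 KO, 11222, 11168, 10723 and 11652 in Pax5 WT and 3149, 5658, 5289.7 and 4695 in P80R B-ALL. Its P80R B-ALL libraries were below Pax5 WT by -1.29 ± 0.18 (SE; adjusted p = 0.000629), and recipient 1301 overlapped Pax5 KO. Incenp read 5436, 5665, 5579 and 5188 in Pax5 KO, 10514, 10318, 9871 and 8235 in Pax5 WT and 2854, 3144, 3938 and 3009 in P80R B-ALL. Here the 3 groups did not overlap, at -1.59 ± 0.15 (SE; adjusted p = 7.28e-05) from Pax5 WT and -0.77 ± 0.13 (SE; adjusted p = 0.00266) from Pax5 KO, or -0.31 with the coding-length trend removed. Birc5 read 7932, 7696, 7477 and 7669 in Pax5 KO, 14854, 15355, 15495 and 19112 in Pax5 WT and 7379.9, 10384, 6952 and 9974 in P80R B-ALL. It lay -0.92 ± 0.17 (SE; adjusted p = 0.00246) below Pax5 WT and overlapped Pax5 KO, with a difference of 0.15 ± 0.15 (SE; adjusted p = 0.463) that turned to -0.37 (adjusted p = 0.0421) once the coding-length trend was removed.

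Tpx2, Nusap1 and Hmmr encode microtubule-binding proteins that help to assemble the spindle. All 3 were lower in P80R B-ALL than in either fetal liver group and lower in Pax5 KO than in Pax5 WT. Tpx2 gave 7367, 8057, 7405 and 7693 in Pax5 KO, 14517, 13778, 13156 and 12457 in Pax5 WT and 4023, 5486, 5537 and 4013 in P80R B-ALL. Hmmr gave 5571, 5459, 5938 and 5426 in Pax5 KO, 10803, 10058, 9657 and 8798 in Pax5 WT and 2344, 3778, 3528 and 2185 in P80R B-ALL. Neither showed an overlap between groups; the differences from Pax5 WT were -1.52 ± 0.15 (SE; adjusted p = 0.00011) for Tpx2 and -1.77 ± 0.20 (SE; adjusted p = 0.000184) for Hmmr. With the coding-length trend removed, none of the 3 was called against Pax5 KO, at -0.32 (adjusted p = 0.102) for Tpx2, -0.37 (adjusted p = 0.0508) for Nusap1 and -0.56 (adjusted p = 0.0508) for Hmmr.

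The kinesins of this list move spindle poles apart (Kif11, Kif15), shorten microtubules at centromeres (Kif2c), dampen chromosome movement (Kif18a) or ride on chromosome arms (Kif4). All 5 were lower in P80R B-ALL than in Pax5 WT (median -1.71) and lower in Pax5 KO than in Pax5 WT (median -0.75). All but Kif18a were lower in P80R B-ALL than in Pax5 KO. Kif11 had values of 9674, 10893, 11204 and 10224 in Pax5 KO, 21300.1, 18918, 18367 and 14522 in Pax5 WT and 4122, 7313, 6751 and 4622 in P80R B-ALL. Kif2c had values of 3871, 3906, 4079 and 3906 in Pax5 KO, 6390.3, 6098, 6222 and 6049 in Pax5 WT and 1194, 1978, 2592 and 1502 in P80R B-ALL. In both genes the groups did not overlap, and P80R B-ALL differed from Pax5 KO by -0.92 ± 0.19 (SE; adjusted p = 0.0067) for Kif11 and by -1.18 ± 0.22 (SE; adjusted p = 0.0041) for Kif2c. With the coding-length trend removed, Kif11 (-0.38, adjusted p = 0.177) and Kif15 (-0.36, adjusted p = 0.170) were no longer called against Pax5 KO, and Kif4 went from -1.13 to -0.53. Kif4 had values of 2658, 3389.8, 3219.7 and 3030.2 in Pax5 KO, 5539.8, 5384, 5164 and 4535 in Pax5 WT and 1161, 1340.1, 2039 and 1196 in P80R B-ALL, the largest difference of these kinesins from Pax5 WT, -1.88 ± 0.19 (SE; adjusted p = 0.000114). Kif18a had values of 1683, 1895, 1779.6 and 1638 in Pax5 KO, 3697, 3472, 3486 and 2907 in Pax5 WT and 1757, 2637, 2121 and 1180.4 in P80R B-ALL. Recipient 1308 lay below all Pax5 KO libraries and recipients 1301 and 1302 above them, and the difference from Pax5 WT was -0.87 ± 0.23 (SE; adjusted p = 0.0145), not called with the coding-length trend removed.

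Cytokinesis and the central spindle are represented by Prc1, which bundles antiparallel microtubules, the motors Kif20a, Kif20b and Kif23, the guanine nucleotide exchange factor Ect2 and the scaffold anillin (Anln). All 6 were lower in P80R B-ALL than in Pax5 WT (median -1.51), and 4 of 6 were lower than in Pax5 KO. Only 4 of 6 were lower in Pax5 KO than in Pax5 WT, and this was the group with the median nearest 0 in that comparison, -0.44. Prc1 counted 4493, 4539, 4773 and 4356 in Pax5 KO, 7711, 7170.2, 7009 and 6699 in Pax5 WT and 1682, 2736, 3028 and 2228 in P80R B-ALL, with no overlap. Kif20a counted 4339.6, 4418, 4563 and 4415 in Pax5 KO, 7200.2, 7060.2, 7181 and 7027 in Pax5 WT and 1181, 2598, 2499.7 and 1428 in P80R B-ALL, at -1.97 ± 0.25 (SE; adjusted p = 0.000362) from Pax5 WT. Kif23, the motor of the centralspindlin complex, was among the genes with the largest difference from Pax5 KO, -1.47 ± 0.16 (SE; adjusted p = 0.000381). Anln counted 2147, 2178, 2221 and 2047 in Pax5 KO, 2400.4, 2368, 2373 and 1973 in Pax5 WT and 1266, 1536, 1349.7 and 1144 in P80R B-ALL. Its Pax5 KO and Pax5 WT libraries overlapped, with a difference of -0.08 ± 0.07 (SE; adjusted p = 0.353), while all recipients lay below both. With the coding-length trend removed, Anln was called lower in Pax5 KO than in Pax5 WT and was not called in either comparison with P80R B-ALL; Kif23 (-0.97) and Kif20a (-0.83) stayed lower than in Pax5 KO. Ect2 counted 5737, 6544, 6510.5 and 5878 in Pax5 KO, 8099.9, 7626, 6880.0 and 6451 in Pax5 WT and 4512, 5666, 5007 and 4517 in P80R B-ALL. It differed between P80R B-ALL and Pax5 WT by -0.56 ± 0.13 (SE; adjusted p = 0.00914), a call lost with the coding-length trend removed, and its small difference between Pax5 KO and Pax5 WT, -0.23 ± 0.08 (SE; adjusted p = 0.0191), lost its call in 4 of the 8 fits without 1 library and was -0.36 with that trend removed.

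Top2a untangles sister chromatids and Mki67, the proliferation antigen, coats mitotic chromosomes. Both were lower in P80R B-ALL than in both fetal liver groups. Top2a was at 28669, 31948, 32618 and 30196 in Pax5 KO, 52232, 48028, 47900.1 and 43746 in Pax5 WT and 13867, 17126, 21346 and 14932 in P80R B-ALL, with no overlap and a difference of -1.53 ± 0.15 (SE; adjusted p = 0.000114) from Pax5 WT. Mki67 (ENSMUSG00000031004) was at 9892, 8067, 5656 and 6509 in Pax5 KO, 21240.5, 17742, 18470.0 and 15414 in Pax5 WT and 5935, 2381, 5424 and 2030.1 in P80R B-ALL. Its fetal liver libraries were far apart for this list, with the largest SD within Pax5 KO of the 44 genes, 0.35 on the log2 scale. Recipient 1300 lay above the lowest Pax5 KO library and the other 3 below all of them, and the differences were -2.36 ± 0.34 (SE; adjusted p = 0.000727) from Pax5 WT and -1.06 ± 0.37 (SE; adjusted p = 0.0476) from Pax5 KO. With the coding-length trend removed, neither gene was called against Pax5 KO; Top2a went from -0.89 to -0.23 (adjusted p = 0.214) and Mki67 to -0.35 (adjusted p = 0.372).

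In P80R B-ALL against Pax5 KO, calls of Aurka, Cdc20, Cenpf, Mki67, Nek2, Nusap1 and Ube2c were each lost in 5 to 7 of the 8 fits without 1 library. Against Pax5 WT the calls of 40 of the 44 genes were the same in all 8 such fits.

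As a mean over the 44 genes, the log2 value was 13.07 to 13.14 in Pax5 WT libraries, 12.26 to 12.31 in those of Pax5 KO and 11.50, 11.91, 11.92 and 11.60 in recipients 1300, 1301, 1302 and 1308. The 3 groups did not overlap. Reads of the 44 genes made up 0.849% to 0.878% of a Pax5 KO library, 1.42% to 1.52% of a Pax5 WT library and 0.494% to 0.661% of a P80R B-ALL library. The mean over 32 S-phase genes (replication and nucleotide synthesis) was 12.79 to 12.85 in Pax5 WT, 12.24 to 12.34 in Pax5 KO and 12.01 to 12.68 across recipients. Mitotic minus S-phase, the means differed by 0.22 to 0.33 in Pax5 WT, by -0.03 to 0.03 in Pax5 KO and by -0.77 to -0.47 across recipients. Recipient 1301 had the highest S-phase mean and the lowest difference, which a high S-phase mean lowers by arithmetic. Its mitotic mean, 11.91, was close to the 11.92 of recipient 1302. Neither mean was corrected for the trend with coding length described further on.

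**Figure D4:**
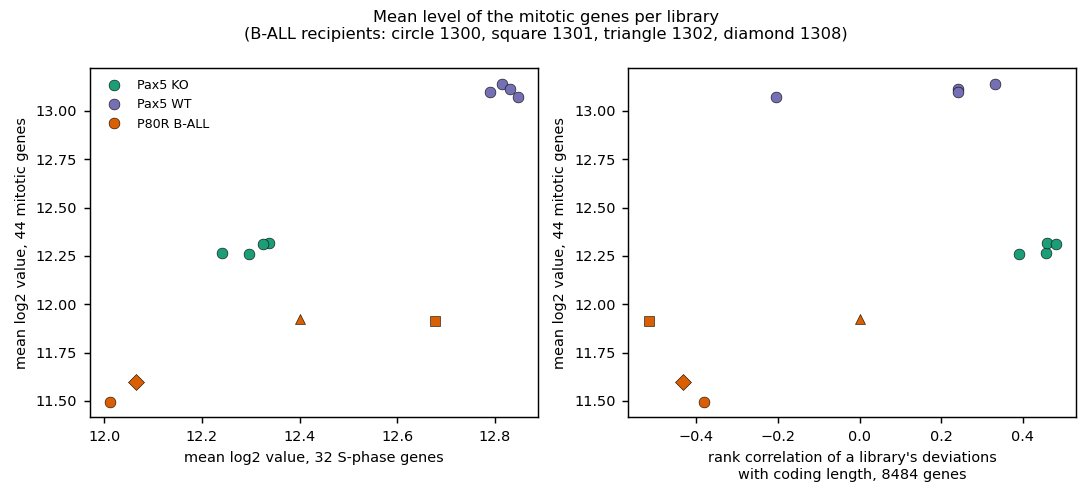
Left, mean log2 value of the 44 mitotic genes (y axis) against that of 32 S-phase genes (x axis) in each of the 12 libraries. Right, the same y axis against the rank correlation of each library's deviations with coding length over 8484 genes; the P80R B-ALL libraries lie lowest in both panels, and 1301, 1308 and 1300 have the most negative correlations.

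The recipients varied more than the fetal liver libraries. The median SD of the 44 genes was 0.38 on the log2 scale in P80R B-ALL, against 0.07 in Pax5 KO and 0.09 in Pax5 WT; over all genes it was 0.42, 0.11 and 0.15. Bub3 was the steadiest gene among recipients, with a highest value 1.15 times the lowest, and Pttg1 the least steady, at 4.01 times. Recipient 1300 was lowest for 27 of the 44 genes, and the highest values were mostly those of recipient 1301 (23 genes) and 1302 (15 genes). The long genes Cenpf, Kif20b and Mki67 went against this, with recipient 1300 highest.

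Differences in these libraries moved with coding length, the number of coding bases of the longest annotated coding sequence. In P80R B-ALL minus Pax5 KO the rank correlation of difference with coding length was -0.39 over 11886 genes and -0.72 over the 44 mitotic genes. In P80R B-ALL minus Pax5 WT it was -0.27 over 11589 genes and -0.54 over the 44, and in Pax5 KO minus Pax5 WT 0.14 over 11549 genes and 0.30. Genes of one comparison share their libraries, so these are descriptions. The 9 mitotic genes of up to 1000 coding bases, among them Cdk1, Mad2l1, Pttg1, Spc25, Cenpa, Birc5 and Ube2c, had a median of 0.23 in P80R B-ALL minus Pax5 KO, against 0.33 for all genes of that length. The 12 mitotic genes over 3000 bases, among them Cenpe, Cenpf, Mki67, Espl1 and Top2a, had a median of -0.96, against -0.67. Against Pax5 WT the mitotic genes stood further from genes of their length, with -0.65 against 0.29 in the short class and -1.79 against -0.44 in the long one. By library, the rank correlation of deviations from the gene means with coding length was 0.24 to 0.33 in Pax5 WT libraries 1 to 3, -0.21 in Pax5 WT library 4 and 0.39 to 0.48 in Pax5 KO. Among the recipients it was -0.38, -0.52, 0.00 and -0.43. Its cause was not tested.

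With the trend removed from each library, an alternative added after the data were seen, 39 of the 44 genes were lower in P80R B-ALL than in Pax5 WT (median -1.36), against 18.7% of all genes in that fit. In Pax5 KO against Pax5 WT 43 were lower (median -0.92), against 33.9% of all genes. Against Pax5 KO, 15 genes were lower in P80R B-ALL, against 14% of all genes, and 1 was higher, against 15.5%. The 15 included Plk1 (-0.85), Espl1 (-1.08), Cenpe (-0.83), Kif23 (-0.97) and Cdca8 (-0.80). Of the 27 genes called lower than in Pax5 KO before, 13 were no longer called, and 7 that were still called (Bub1b, Cenpe, Espl1, Incenp, Kif20a, Kif23 and Kif4) had differences smaller by over 1.5 times.

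**Figure D5:**
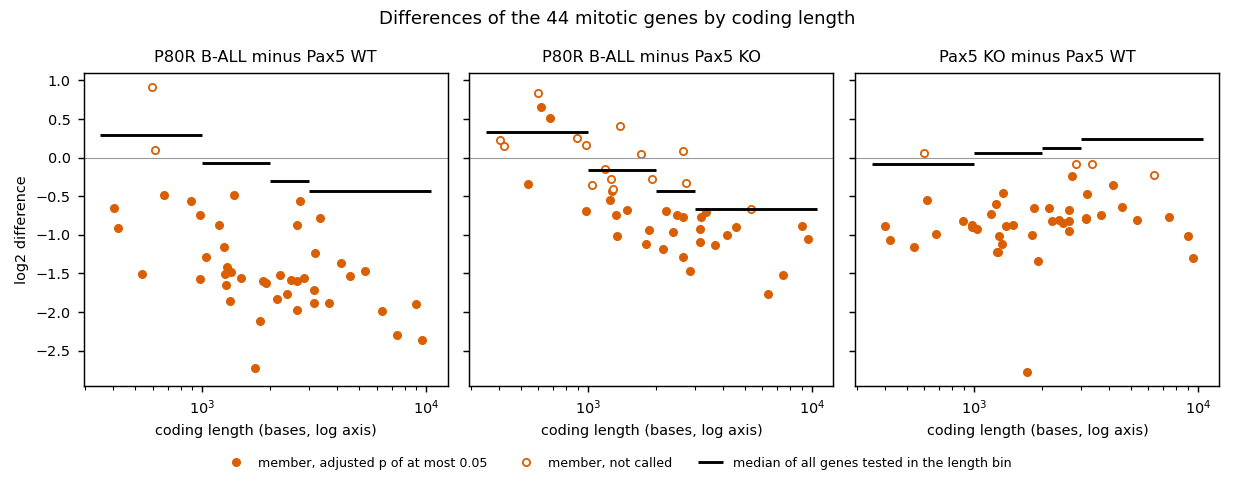
log2 difference of each of the 44 mitotic genes (y axis) against coding length in bases (x axis, log scale) in the 3 comparisons; filled points are called and black bars are medians of all genes tested in 4 length classes. In both comparisons with P80R B-ALL the points and the bars fall with length, and in the comparison with Pax5 WT the points lie mostly well below the bars.

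Levels per kilobase of the annotated transcript with the longest coding sequence allow a rough comparison between genes. The transcripts expressed may differ in length from those used. Mad2l1 was divided by 7557 bases for 615 coding bases, and Cdk1 by 4375 bases for 891. Ube2c was the most abundant of the 44 in Pax5 WT, at 19620.5 ± 1799.7 (SD, n = 4) per kilobase, followed by Birc5 at 17111 ± 2068 (SD, n = 4). Ube2c was above Birc5 in all 4 Pax5 WT libraries. In P80R B-ALL Birc5 came first, at 9158 ± 1854 (SD, n = 4), followed by Ube2c at 6921 ± 839 (SD, n = 4) and Cenpa at 6496 ± 1569 (SD, n = 4). Birc5 was above both in all 4 recipients, and Ube2c was above Cenpa in 3 of 4. Anln had the lowest mean in Pax5 WT, at 495 ± 44.3 (SD, n = 4), close to Espl1 at 503 ± 99.8 (SD, n = 4), which was above Anln in 3 of 4 libraries and below it in library 4. In P80R B-ALL Espl1 was lowest, at 131 ± 51.5 (SD, n = 4). Pttg1 moved from place 42 of 44 in Pax5 WT to place 17 in P80R B-ALL, and Mad2l1 from 34 to 18. Both have up to 1000 coding bases, and all genes of that length had a median of 0.29 in P80R B-ALL minus Pax5 WT. Genes over 3000 coding bases, such as Espl1, had a median of -0.44. The places were not corrected for this trend.

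Around the 44 genes, other genes of the same pathways were counted in lists chosen for their function. These counts and differences come from the main fit and were not corrected for the trend with coding length. In P80R B-ALL minus Pax5 KO, all genes of up to 1000 coding bases had a median of 0.33, and those over 3000 had -0.67. Of the regulators of G2/M transcription, 3 of 10 tested were lower in P80R B-ALL than in Pax5 WT (Mybl2, Foxm1 and E2f4) and 1, the MuvB subunit Lin52, was higher. Over all genes tested 19.8% were lower and 20.8% higher, and the median of the 10 was -0.08, so the list as a whole was near the background. Mybl2, which encodes B-Myb, had 1983, 1805, 1912 and 1839.8 in Pax5 KO, 4207, 4083, 3819 and 3828 in Pax5 WT and 793, 838, 898 and 973 in P80R B-ALL. The groups did not overlap, with -2.19 ± 0.13 (SE; adjusted p = 9.66e-06) from Pax5 WT and -1.11 ± 0.12 (SE; adjusted p = 0.000452) from Pax5 KO. Foxm1 had 2333, 2224, 2212 and 2096 in Pax5 KO, 3317, 3407, 3592 and 2514 in Pax5 WT and 718, 789, 1519.7 and 1283 in P80R B-ALL, at -1.63 ± 0.25 (SE; adjusted p = 0.00103) from Pax5 WT and -1.11 ± 0.24 (SE; adjusted p = 0.00738) from Pax5 KO. In Pax5 KO against Pax5 WT, 7 of the 10 were lower and Rbl2 was higher (0.26). Against Pax5 KO, Mybl2 and Foxm1 were lower in P80R B-ALL and Lin52 (0.74) and the pocket protein gene Rbl1 (0.64) were higher, and the median of the 10 was 0.07.

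The other spindle and cytokinesis genes numbered 23, of which 20 were lower in P80R B-ALL than in Pax5 WT, 11 lower than in Pax5 KO, and 21 lower in Pax5 KO than in Pax5 WT. Ckap2l, a spindle-pole protein, differed by -1.76 from Pax5 WT and -0.94 from Pax5 KO. Exceptions were Stmn1, a tubulin-binding protein, higher in P80R B-ALL than in Pax5 KO (1.01), and Numa1, the spindle-pole organiser, higher in Pax5 KO than Pax5 WT (0.54) and lower in P80R B-ALL than in Pax5 KO (-1.57). Of 34 other kinetochore and inner centromere genes, 21 were lower in P80R B-ALL than in Pax5 WT and 29 lower in Pax5 KO than in Pax5 WT, where Cenpt (0.31) and Zwint (0.17) were higher; against Pax5 KO, 10 were lower in P80R B-ALL and 3 higher (Mis18a, Pmf1 and Cenpk). Sgo2a, a protector of centromeric cohesion, differed by -1.65 from Pax5 WT. All 8 condensin subunits were lower in P80R B-ALL than in Pax5 WT, from -1.81 for Ncapd2 to -0.56 for Ncaph2 (median -1.36), and 4 were lower than in Pax5 KO.

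Of 12 cohesin subunits and loaders, 7 were lower in P80R B-ALL than in Pax5 WT, while Wapl, which releases cohesin from chromatin, was higher in P80R B-ALL (1.81) and in Pax5 KO (2.37) than in Pax5 WT. In Pax5 KO against Pax5 WT 9 were lower and Mau2, a cohesin loader, was also higher (0.42). Mitotic entry and exit regulators were lower in 8 of 14 against Pax5 WT, among them Ccnf (-1.38), the anaphase-promoting complex activator Fzr1 (-1.33) and Bora (-1.26); against Pax5 KO, 5 were lower and Cdkn3, Fbxo5 and Cks2 were higher. The core subunits of the anaphase-promoting complex followed less of a direction, with 6 of 15 lower and 2 higher (Cdc26 and Anapc11) against Pax5 WT, and 3 lower and 5 higher against Pax5 KO. Of the 32 S-phase genes, 17 were lower in P80R B-ALL than in Pax5 WT, among them Lig1 (-1.45), Rrm2 (-1.39) and Pold1 (-1.28). Against Pax5 KO, 9 were lower and 9 higher in P80R B-ALL, the latter including Tyms (1.32), Rfc3 (1.09) and Ccne2 (1.30). All of these shares are read against the shares called over all genes given above, and none was corrected for the trend with coding length.

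Summed markers of other blood cells were higher in every P80R B-ALL library than in every Pax5 WT library. The erythroid and the granulocyte and monocyte lists were highest in recipients 1300 and 1308, whose mitotic means were lowest, while the macrophage, T cell and NK lists did not follow that order. The summed level of 12 erythroid markers was 583 to 786 CPM (counts scaled to a fixed library total) in Pax5 WT, 633 to 706 in Pax5 KO, and 12828, 1340, 1258 and 29019 in recipients 1300, 1301, 1302 and 1308. Tfrc, the transferrin receptor gene, made up nearly all of the fetal liver sums, at 577 to 783 CPM in Pax5 WT and 627 to 700.4 in Pax5 KO, and was lower, at 169.9 to 324, in P80R B-ALL. Of the 12, 11 had a mean of at least 1 CPM in P80R B-ALL and 2 in each fetal liver group, and Hba-a2, Ank1 and Slc4a1 were at 0 in all fetal liver libraries. Granulocyte and monocyte markers, 12 in all, summed to 16.9 to 23.8 CPM in Pax5 WT, 322 to 350 in Pax5 KO, and 5168, 399, 221 and 5387 in the recipients. The 8 macrophage markers summed to 0.48 to 1.57 CPM in Pax5 WT, 8.62 to 10.9 in Pax5 KO and 130.4, 174, 157 and 839 in the recipients, with C1qc and Timd4 at 0 in both fetal liver groups. T cell markers (8 measured) summed to 12.3 to 17.4 in Pax5 WT, 81.3 to 84.5 in Pax5 KO and, in the recipients, 227, 393, 176 and 296 CPM. Most of each sum was Lck, at 154 to 382 CPM in P80R B-ALL and 75.5 to 76.6 in Pax5 KO. The highest of the other markers in P80R B-ALL was Cd4, at 3.44 to 39.0 CPM, and the lowest was Bcl11b, at 0 to 1.52. NK and innate lymphoid markers summed to 11.7 to 16.9, 212 to 241 and 202, 46.1, 291 and 558 CPM in the same order, and endothelial markers to 77.8 to 96.0, 66.9 to 72.7 and 89.1 to 163 CPM. Hepatocyte markers reached 295 to 637 CPM in P80R B-ALL with Alb, Apoa1, Ttr and Serpina1a at 0; nearly all of it was Trf, the transferrin gene, at 293 to 636 CPM. The 10 pro-B and pre-B markers summed to 7497 to 8680, 1272 to 1357 and 2999 to 5905 CPM, and the 6 early lymphoid progenitor markers to 368 to 429, 1577 to 1620 and 509 to 3292 CPM. Single genes weighed on these P80R B-ALL sums, with Dntt at 3.90 to 3539 CPM and Ly6d at 12.6 to 2819. Of the 10, 7 were called lower and 0 higher than in Pax5 WT, and 0 lower and 6 higher than in Pax5 KO. Of the 6, 3 were lower than in Pax5 KO and 1 higher. Cd34 was at 0 to 0.76 CPM, against 80.4 to 91.8 in Pax5 KO. Without recipients 1300 and 1308, 39 of the 44 mitotic genes were lower than in Pax5 WT (median -1.32), against 23% of all genes in that fit. In the fit against Pax5 KO 26 were lower, against 29.5% of all genes (median -0.48). There 4 were higher (Mad2l1, Nuf2, Spc25 and Kif18a), against 19.6% of all genes.

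The libraries were made with a full-length kit that does not mark strand, and 11 of the 44 genes share exon bases with a gene on the opposite strand in the annotation (GENCODE M21). For Ccna2 and Exosc9, Cdc20 and Elovl1, Cdc25b and Spef1, Kif20a and Cdc23, Nusap1 and Oip5, Prc1 and Rccd1, Ube2c and Tnnc2, and Kif4, Kif18a, Cdc25c and Cdca8 with their partners, reads of the shared bases cannot be told apart.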

How the data were processed

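RNA of the sorted cells was extracted with the RNeasy plus micro kit and made into full-length SMART-Seq v4 libraries, per the labels' protocols. The submitters' processing notes name fastp, STAR 2.7.8a, featureCounts and mm39. The signal values the authors deposited are whole read counts times 1 constant per library (0.722 to 1.38); divided by it, 100.0% of values lay within 0.001 of a whole number. Because they are scaled, limma 3.58.1 (R 4.3.3; log2(value + 1), trend and robust, two-sided) was the main test, fitted on the 8 libraries of each pair, over genes that reached 10 in 4 or more of them. edgeR 4.0.16 and DESeq2 1.42.0 on the recovered reads, other scalings, pseudocounts and filters, 1 fit to all 12 libraries and leaving out libraries were alternatives; the limma fit was also tested on simulated data, with the outcome given beside the main counts. Symbols came from GENCODE M21, which named 21780 of 21885 IDs; lengths are from the same annotation. No gene coordinates other than those of the promoter table are printed, since its build differs from mm39. Values in every library are given for a named set of 23 genes and for the genes with the largest and smallest difference between P80R B-ALL and Pax5 WT in each role; of other lists, up to 3 genes with the smallest adjusted p and those against the direction of their list. The mitotic genes and all lists were chosen with earlier results of these data known.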

Additional observations from a re-analysis of the deposited data

Results flagged for a closer look

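Each of the 44 genes was checked in each group of 4 libraries for a highest or lowest library whose gap to the next, over the whole range of the group, exceeded Dixon's 95% critical value of 0.829. Of 132 such checks 10 passed, and chance gives about 1 in 20. The fourth Pax5 WT library held 5 of them: it was highest for Cdc20 (14610.3, the others 12664 to 12784), Ube2c (21560.2, the others 17810.1 to 18375) and Birc5 (19112, the others 14854 to 15495), and lowest for Espl1 (2352, the others 3647 to 3731) and Anln (1973, the others 2368 to 2400.4). That library was also the Pax5 WT library with a negative rank correlation of deviations with coding length, -0.21. Recipient 1301 held 2, with Cdk1 at 13951 (the others 7672 to 8503) and Mad2l1 at 16427 (the others 8617 to 9322). In Pax5 KO, the fourth library was highest for Pttg1 (803, the others 678 to 691) and lowest for Ndc80 (3109, the others 3425 to 3479), and the third was highest for Kif2c (4079, the others 3871 to 3906).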

How the results depend on the processing

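Each count and median was recomputed under 11 other settings and 8 fits without 1 library per comparison. Median differences of the mitotic genes kept their sign in all of them. Of the 44 genes, 37 kept the same call in all 11 other settings in P80R B-ALL minus Pax5 WT, 19 in P80R B-ALL minus Pax5 KO and 38 in Pax5 KO minus Pax5 WT. Called higher against Pax5 WT was 1 gene (Pttg1) with all 12 libraries in one fit, edgeR or DESeq2. Over all genes these settings called 3222 of 12200, 2595 of 11615 and 2972 of 11615 higher. Called higher against Pax5 KO were 4 genes with all 12 libraries, 4 with edgeR, 5 with DESeq2, 1 with CPM scaling and 4 without recipients 1300 and 1308. Over all genes the counts were 2633 of 12200, 2499 of 11914, 2903 of 11914, 1743 of 11998 and 2223 of 11335 (19.6%). With the coding-length trend removed, 15 genes were lower and 1 higher than in Pax5 KO, the median was -0.34, and Birc5 turned to -0.37 (adjusted p = 0.0421); in Pax5 KO minus Pax5 WT the median was -0.92. CPM scaling gave -0.73 there, and all 12 libraries in one fit called 4193 genes in place of 7684. In the last 150 bases before the start, 31.6% of the mitotic promoters held CHR letters in place of 76.3% in the whole window.

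Without 1 library, P80R B-ALL minus Pax5 WT gave 3285 to 4637 genes called, 39 to 42 mitotic genes lower, 0 to 1 higher and a median of -1.59 to -1.44. P80R B-ALL minus Pax5 KO gave 2973 to 4963 genes called (2995 without Pax5 KO library 2 and 2973 without library 3, in place of 4652), 20 to 26 lower, 0 to 3 higher and a median of -0.79 to -0.59. Pax5 KO minus Pax5 WT gave 6614 to 7774 genes called, 39 to 43 lower and a median of -0.85 to -0.78. In P80R B-ALL minus Pax5 KO CPM scaling moved the median of all genes from -0.12 to -0.26, the share of calls that were lower from 54.3% to 64.5% and the mitotic genes called lower to 31; with TMM scaling these were -0.08, 50.7% and 22. With edgeR and DESeq2, which also change the test and use the recovered reads, they were 0.06, 42.1% and 21, and 0.07, 42.8% and 23. In P80R B-ALL minus Pax5 WT DESeq2 moved the median of all genes from -0.03 to 0.09. Replicate numbers of Pax5 KO and Pax5 WT did not pair the libraries: deviations of same-numbered libraries correlated at -0.005 to 0.09, and 1 of 4 correlated best with its own number. With the replicate block, 7776 genes and 40 mitotic genes were called lower or higher and the median was -0.82.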
